A study of Sus scrofa with 6 samples.

Results

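The 10 genes described here encode surface receptors, membrane proteins and signalling proteins of macrophages and other myeloid cells: TYROBP, CD53, LAPTM5, AIF1, SPI1, VSIG4, CD86, CCR1, FCGR2B and FCGR3A. They were taken as all probe sets that the platform annotation gives to exactly 1 of these symbols, which found 16 of the 23999 probe sets on the array, for 10 of 6765 named genes. The genes had been picked with their levels across the follicle stages in view, so the stage differences of these genes are given as a description and support nothing by themselves. The other gene lists below were also chosen with earlier results of these data known, so their counts and p-values are likewise a description. Total RNA came from follicles of the ovaries of gilts before puberty (a gilt is a young female pig), isolated by morphology and diameter. It was hybridised to 6 single-colour Affymetrix porcine arrays, 2 titled as biological replicates for each of 3 stages, which the titles call primordial, middle stage and last stage. No strain, age or treatment is given in the sources used here, and nothing says whether replicates came from separate animals, so errors and p-values cover the spread between these samples, which may be technical.

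Macrophages live in the stroma and theca of the ovary and are known there for clearing dying follicles and for a part in ovulation and luteal remodelling. Many of their receptors do not signal alone. They pair with small adaptors that carry an immunoreceptor tyrosine-based activation motif (ITAM), which recruits the kinase SYK once it is phosphorylated, while inhibitory receptors carry a related motif (ITIM) that recruits phosphatases. The transcription factor PU.1, encoded by SPI1, is needed for the myeloid lineage and controls many genes of this kind.

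Cell type markers were set against the stage labels. The summed signal of 11 oocyte genes was 495 and 482 on the primordial arrays, 20064 and 21821 on the middle-stage arrays and 907 and 888 on the last-stage arrays. For 11 granulosa genes it was 40705 and 53846, 13453 and 19517, and 65584 and 59450 on the same pairs. INHA, the inhibin alpha subunit made by granulosa cells, had 11118 and 16319 on the primordial arrays and 2219 and 3823 on the middle-stage arrays. AMH, also of the granulosa list, ran the other way, with 199 and 273 on the primordial arrays and 969.5 and 1764 on the middle-stage arrays. Primordial follicles consist of an oocyte within a thin layer of granulosa cells, so the low oocyte signal on the arrays titled primordial goes against that title. A description attached to all 6 samples also calls them primordial, so stages were named by title alone. Median probe set signal ranged from 119 to 169.9 over the arrays. For the actin control transcript, the log2 difference between 3′ and 5′ signal was 3.56 and 3.21 on the primordial arrays, 4.98 and 4.21 on the middle-stage arrays and 3.90 and 3.57 on the last-stage arrays. For GAPDH it was 3.43 and 2.69, 3.29 and 2.79, and 1.90 and 1.86 on the same pairs, and for EF1a it ran from 0.673 to 1.34 over the arrays. The actin value thus set the middle-stage arrays highest and the GAPDH value the last-stage arrays lowest. Their part in the stage differences below was not tested.

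Values are the deposited signals, linear intensities that the authors scaled by 1 factor per array. Of the 16 probe sets 12 passed a filter that removed the dimmest 40% of the array, and each of the 10 genes kept at least 1. A probe set that is bright only at 1 stage can pass this filter. The 4 that failed were 1 of LAPTM5, with signals from 1.2 to 3.7 on all arrays, 1 of FCGR3A and 2 of VSIG4. Each difference below is between mean log2(signal + 16) values, given ± the standard error of a limma fit over all probe sets and all 6 arrays. The added 16 makes differences of dim genes smaller.

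In the probe sets that passed the filter, all 10 genes were brightest on the primordial arrays. The mean signal of the middle-stage arrays was 2.31% to 22.7% of the primordial mean over the 12 probe sets that passed the filter, and that of the last-stage arrays was 5.84% to 45.1%. In bulk RNA such a difference can mean fewer cells of a type or less RNA per cell, and these cannot be told apart. On the log2 scale the middle minus primordial differences ran from -5.17 to -2.10 with a median of -3.58, against a median of 0.22 over all 14399 probe sets tested. All 12 were called lower at a limma adjusted p under 0.05, as were 17.7% of all probe sets tested, and in all 12 the middle-stage arrays lay below both primordial arrays without overlap, as they did for 29.2% of all. In last minus primordial the 12 differences ran from -4.20 to -1.37 with a median of -2.39, against 0.14 over all probe sets, and all 12 were called lower, against 13.4% of all. Here too no array overlapped in any of the 12, against 27.9% of all. At 1 probe set per gene, 3 of the 10 genes had a middle-stage mean below the filter value of 91.3, and 1 a last-stage mean below it. The CD53 probe sets with middle-stage means of 73.2 and 43.1 were also below it there, so these passed through the other stages. Without the filter 10 of 10 genes were called lower in middle minus primordial, against 16.6% of all genes. In last minus primordial 9 of 10 were, against 11.0%. Both comparisons share the primordial arrays, and the genes were picked on such values, so nothing is read from these counts. Other cell types differed too in middle minus primordial: 9 of 9 tested oocyte genes and 5 of 7 stromal fibroblast genes were higher, with medians of 5.41 and 3.82. Of all genes tested 22.9% were called higher. Of these tested genes 7 oocyte and 3 stromal ones had a primordial mean below the filter value, so they passed through the other stages. Without the filter the counts were 10 of 11 and 5 of 7, against 4587 of all 23999 probe sets called higher. In the granulosa list 5 of 8 genes were lower and 1 higher, with a median of -0.97, against 22.5% of all genes called lower.

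**Figure D1:**
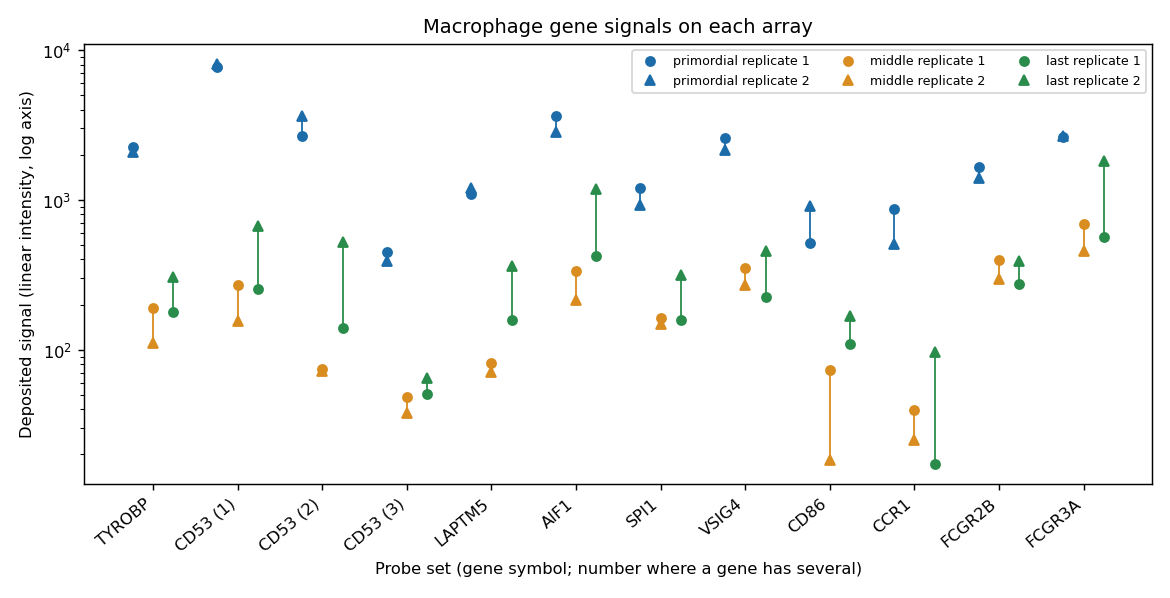
Deposited signal (linear intensity on a log axis) of the 12 probe sets that passed the filter, on each of the 6 arrays. Circles are replicate 1 and triangles replicate 2, and a line joins the arrays of a stage. In every probe set the primordial arrays lie above the others, and the triangle of the last stage lies above its circle.

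TYROBP, also known as DAP12, is an ITAM adaptor that pairs with activating receptors such as TREM2 and is used by macrophages, microglia and natural killer cells. Its signal was 2258.5 and 2080.4 on the primordial arrays, 191 and 111 on the middle-stage arrays and 179 and 306 on the last-stage arrays. The middle and last-stage arrays overlapped and lay far under the primordial ones. It differed by -3.75 ± 0.31 for middle minus primordial, by -3.13 ± 0.31 for last minus primordial and by 0.63 ± 0.31 for last minus middle (n = 2 arrays per stage here and below).

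FCGR3A, known as CD16, is an activating Fc receptor for immunoglobulin G found on macrophages and natural killer cells. It had 2632 and 2661 on the primordial arrays, 688.5 and 455 on the middle-stage arrays and 566 and 1820.2 on the last-stage arrays. Last replicate 1 lay between the middle-stage arrays and last replicate 2 above both. Last replicate 2 alone kept 68.8% of the primordial mean while last replicate 1 kept 21.4%. Among the 12 probe sets this one had the smallest last minus primordial difference, -1.37 ± 0.44, with -2.21 ± 0.44 for middle minus primordial. Its last minus primordial call was lost in 10 of the 15 alternative settings, with a difference of -1.37 to -1.28 in 9 of these and -0.54 without last replicate 1. The second FCGR3A probe set was dim, at 48.6 and 44.1 on the primordial arrays, 8.5 and 6.6 on the middle-stage arrays and 43.8 and 36.8 on the last-stage arrays. It showed no gap between the last-stage arrays.

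FCGR2B, the inhibitory Fc receptor for immunoglobulin G, carries an ITIM. It had 1646 and 1391 on the primordial arrays, 395.5 and 295 on the middle-stage arrays and 273 and 391 on the last-stage arrays. The middle and last-stage arrays covered nearly the same range, and the last minus middle difference was -0.06 ± 0.25. Its sign turned when arrays were centred on their medians (0.05), with quantile normalization (0.06) and without middle replicate 1 or last replicate 1. FCGR2B differed from primordial by -2.10 ± 0.25 in the middle-stage arrays and -2.16 ± 0.25 in the last-stage arrays. Fc receptor genes are close relatives, and no sequence of the probes was used here, so whether the FCGR2B and FCGR3A probe sets share signal was not tested.

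CD53, a tetraspanin on the surface of leukocytes of most lineages, showed the largest middle minus primordial difference of the 12 probe sets, at -5.17 ± 0.40. Its brightest probe set had 7746.5 and 8074 on the primordial arrays, 269.6 and 154.5 on the middle-stage arrays and 253 and 672 on the last-stage arrays. The other probe sets of CD53 ran the same way. The second had 2689.5 and 3651 on the primordial arrays, 74.2 and 72.1 on the middle-stage arrays and 139 and 521 on the last-stage arrays, and the dimmest had 452 and 393, 48.1 and 38.0, and 50.5 and 64.5 on the same pairs. Last minus primordial was -4.20 ± 0.40, -3.45 ± 0.47 and -2.58 ± 0.32 for the 3 probe sets in that order.

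LAPTM5, a lysosomal membrane protein of haematopoietic cells that lowers surface antigen receptor levels in lymphocytes, had 1097 and 1202 on the primordial arrays, 81.6 and 70.8 on the middle-stage arrays and 158 and 361 on the last-stage arrays. The 3 stages did not overlap, with the last-stage arrays between the others. Its differences were -3.66 ± 0.34 for middle minus primordial, -2.18 ± 0.34 for last minus primordial and 1.48 ± 0.34 for last minus middle. AIF1, also called IBA1, an actin-binding protein widely used as a stain for macrophages and microglia, had 3645 and 2846 on the primordial arrays, 334 and 216 on the middle-stage arrays and 423 and 1191 on the last-stage arrays. The stages of AIF1 did not overlap either, and last replicate 2 kept 36.7% of the primordial mean against 13.0% in last replicate 1. The differences were -3.51 ± 0.42, -2.15 ± 0.42 and 1.35 ± 0.42 in the same order.

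VSIG4, a complement receptor of resident tissue macrophages that binds the C3 fragments C3b and iC3b, had 2602 and 2166 on the primordial arrays, 352 and 269 on the middle-stage arrays and 224.5 and 454 on the last-stage arrays. The last-stage arrays lay on either side of the middle ones, with a last minus middle difference of 0.06 ± 0.31. That difference turned to -0.43 without last replicate 2 and to -0.13 without middle replicate 2. VSIG4 differed from primordial by -2.89 ± 0.31 in the middle-stage arrays and -2.83 ± 0.31 in the last-stage arrays. Its other probe sets were dim, one with 36.8 to 95.2 over the arrays and the other with 3.0 to 172.

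CD86, a ligand of the T cell receptors CD28 and CTLA4 on antigen-presenting cells, had 512 and 913 on the primordial arrays, 72.9 and 18.4 on the middle-stage arrays and 109.5 and 167 on the last-stage arrays. The stages did not overlap, although the middle-stage arrays differed from each other by -1.37 (replicate 2 minus replicate 1, log2). CD86 differed by -3.66 ± 0.47 for middle minus primordial, -2.21 ± 0.47 for last minus primordial and 1.45 ± 0.47 for last minus middle. CCR1, a chemokine receptor for CCL3 and CCL5 on monocytes and macrophages, had 868 and 511 on the primordial arrays, 39.6 and 25.1 on the middle-stage arrays and 17.3 and 96.6 on the last-stage arrays. The last-stage arrays of CCR1 lay below and above both middle-stage arrays. Its differences were -3.84 ± 0.54, -3.48 ± 0.54 and 0.36 ± 0.54 in the same order, and last minus middle turned to -0.52 without last replicate 2.

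SPI1 had 1201 and 918 on the primordial arrays, 163.5 and 148.5 on the middle-stage arrays and 159 and 316.5 on the last-stage arrays. For this transcription factor last replicate 1 lay between the middle-stage arrays and last replicate 2 above both. It differed by -2.63 ± 0.32 for middle minus primordial, -2.15 ± 0.32 for last minus primordial and 0.49 ± 0.32 for last minus middle.

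**Figure D2:**
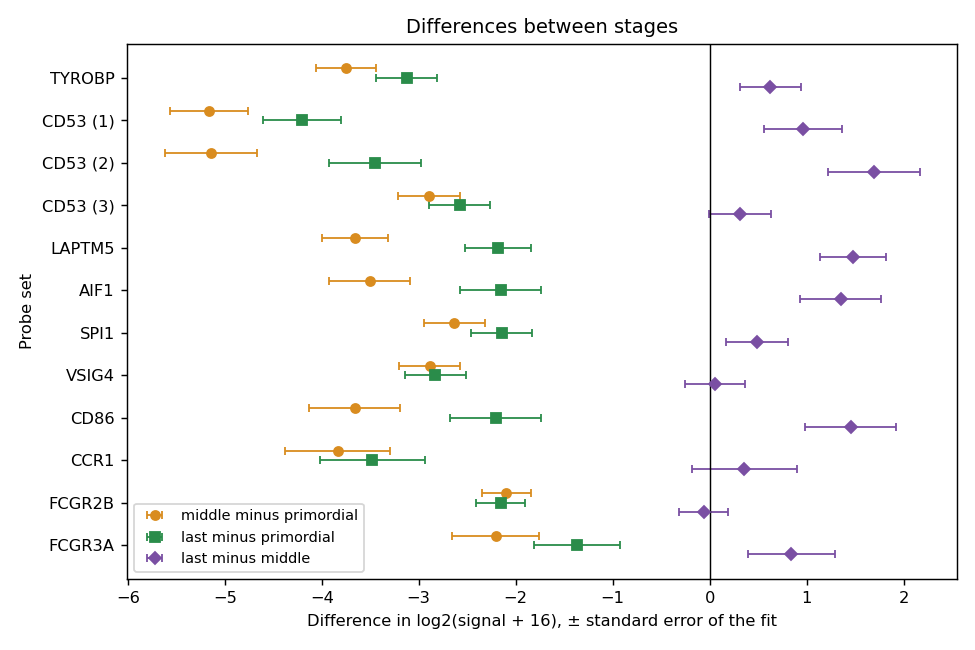
Difference of mean log2(signal + 16) between stages for the 12 probe sets, with the standard error of the limma fit (n = 2 arrays per stage). Middle minus primordial (circles, -5.17 to -2.10) and last minus primordial (squares, -4.20 to -1.37) lie left of 0, and last minus middle (diamonds, -0.06 to 1.69) lies near 0 or right of it.

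In last minus middle the 12 differences ran from -0.06 to 1.69 with a median of 0.74, against a median of -0.07 over all probe sets tested. Only the second CD53 probe set and LAPTM5 were called higher, 2 of 12, against 7.29% of all probe sets, and 5 of 12 were higher at an unadjusted p under 0.05. The call of LAPTM5 was lost without last replicate 2 and without either middle replicate, and that of CD53 without any 1 of 5 arrays (all but last replicate 1), with no filter, with no intensity trend and in the fit of the 4 arrays compared. The last-stage arrays lay above both middle-stage arrays in 5 of the 12, those of LAPTM5, AIF1, CD86 and the 2 dimmer ones of CD53, against 25.2% of all. At 1 probe set per gene 1 of 10 genes was called higher, against 8.80% of all genes. That count was 3 with each array centred on its median or with quantile normalization, 4 without last replicate 1, and 0 without last replicate 2 or without middle replicate 2. Markers of other cell types were called higher in the same comparison, 6 of 6 theca genes with a median of 2.54, 5 of 6 smooth muscle genes with 1.93 and 5 of 6 endothelial genes with 1.61. Without the filter 5, 4 and 3 genes of these lists were called higher, against 801 of all 23999 probe sets. The part of these cell types in the differences of the 10 genes was not tested.

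The 2 last-stage arrays differed from each other for these genes. Last replicate 2 was above last replicate 1 in all 12 probe sets, against 51.2% of all probe sets, by 0.28 to 1.80 on the log2 scale with a median of 1.04, where the median over all probe sets was 0.01. It was more than 2-fold higher in 6 of the 12, against 3.65% of all. These 6 were the probe sets of LAPTM5, AIF1, CCR1 and FCGR3A and 2 of CD53. Last replicate 2 lay above both middle-stage arrays in 11 of 12 probe sets, against 35.1% of all, and last replicate 1 in 5 of 12, against 35.8%. The gap between the arrays of the other stages was smaller: the median of replicate 2 minus replicate 1 was -0.16 for the primordial arrays and -0.42 for the middle-stage arrays. At the middle stage replicate 2 was the higher array in 0 of the 12 probe sets, against 50.3% of all. With 1 array on each side there is no test of these gaps.

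Genes of the macrophage list other than the 10 also differed between stages. Here and below the called genes named from a list are those with the smallest p, so their adjusted p-values are no independent test. Of 25 listed genes 12 were on the array with a probe set of their own and 9 passed the filter; in middle minus primordial 8 of the 9 were lower, with a median of -2.48, against 0.06 over all 5432 genes tested, of which 22.5% were called lower. A gene bright only on the primordial arrays can pass the filter, so the count was also taken without it, which gave 8 of 12 against 16.6% of 6765 genes. GPNMB, a glycoprotein of lipid-laden macrophages, differed by -5.18 ± 0.30 (limma adjusted p = 5.82e-06). TLR2, a receptor for bacterial lipoproteins, fell by 2.96 ± 0.31 on the log2 scale (limma adjusted p = 9.96e-05). SLC11A1, a metal transporter of the phagosome, differed by -3.24 ± 0.40 (adjusted p = 0.000251) and the lysosomal protease CTSS by -2.81 ± 0.36 (adjusted p = 0.000296). The exception was MRC1, the mannose receptor CD206, at -0.25 ± 0.43 (adjusted p = 0.654), with 676.5 and 360.1 on the middle-stage arrays and 849 and 410.4 on the primordial arrays. CD14, MARCO and SIGLEC1 were below the filter, at 80.0 or less on the middle-stage arrays and 79.6 or less on the primordial arrays.

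Between the last and primordial stages 6 of these 9 macrophage genes were lower in the last, with a median of -2.10, against 15.8% of all genes called lower. GPNMB differed by -4.70 ± 0.30 (adjusted p = 2.31e-05), and TLR2 and SLC11A1 differed by -2.66 ± 0.31 and -2.93 ± 0.40 (adjusted p = 0.000409 and 0.000901). The complement C1q chains, which macrophages secrete, did not pass. C1QA had 242.5 and 812 on the last-stage arrays and 1334 and 712 on the primordial arrays (-1.10 ± 0.50, adjusted p = 0.118), and C1QC had 626 and 2705 on the last-stage arrays and 4389 and 2279.5 on the primordial arrays (-1.27 ± 0.56, adjusted p = 0.112). For both, last replicate 2 lay within the range of the primordial arrays, which was not so for any of the 12 probe sets of the 10 genes. MRC1 did not pass either, at -0.48 ± 0.43 (adjusted p = 0.421). In last minus middle limma called 0 of the 9, with adjusted p from 0.0872 for C1QA upward and 1 gene at an unadjusted p under 0.05; without last replicate 1 it called 4 higher, and without last replicate 2 it called 1 lower.

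In the Fc receptor and ITAM list 9 of 24 genes passed the filter. In middle minus primordial 8 of these were lower, with a median of -2.02, against 22.5% of all genes tested. Without the filter 9 of 13 were lower, against 16.6%. No receptor that pairs with TYROBP was among the 9 that passed the filter. TREM1, one such receptor, had 25.2 and 6.5 on the middle-stage arrays and 3.0 and 47.0 on the primordial arrays, and CLEC5A, another, had 37.0 and 7.2 on the middle-stage arrays and 286 and 136 on the primordial arrays. The phosphatase PTPN6, which ITIM receptors recruit, was also below the filter, with 45.5 and 52.8 on the middle-stage arrays and 26.2 and 29.9 on the primordial arrays. FCER1G, the ITAM-bearing gamma chain with which human FCGR3A signals, had 135 and 119 on the middle-stage arrays and 2232 and 1169 on the primordial arrays (-3.51 ± 0.47, adjusted p = 0.000387). VAV1, a signalling protein downstream of ITAM receptors, differed by -4.27 ± 0.56 (adjusted p = 0.000324), the Src family kinase LYN by -2.02 ± 0.31 (adjusted p = 0.000831) and SIRPA, an inhibitory receptor for CD47, by -1.93 ± 0.24 (adjusted p = 0.000252). HCST, an adaptor related to TYROBP but without an ITAM, did not pass at -0.32 ± 0.31 (adjusted p = 0.427). In last minus primordial 8 of 9 were lower again, against 15.8% of all genes, with a median of -1.63, FCER1G at -2.48 ± 0.47 (adjusted p = 0.00432). That count was 5 without either primordial replicate. In last minus middle limma called 0 of the 9, also at an unadjusted p under 0.05, and 2 higher without last replicate 1.

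Of 3 listed CCR1 ligands above the filter, CCL3L1 and CCL5 were lower in the middle-stage arrays. CCL3L1 had 19.5 and 15.9 on the middle-stage arrays and 8120 and 9313 on the primordial arrays (-8.02 ± 0.33, adjusted p = 1.24e-06), and CCL5 differed by -6.16 ± 0.67 (adjusted p = 0.000123). Both rose in last minus middle, where CCR1 itself differed by 0.36 ± 0.54, with 2.52 ± 0.33 for CCL3L1 (adjusted p = 0.00119) and 2.90 ± 0.67 for CCL5 (adjusted p = 0.0177). CCL3L1 was lower in last replicate 2 than in last replicate 1 by -1.10 on the log2 scale, the reverse of the 10 genes. The other ligand, CCL14, did not pass in middle minus primordial at 0.10 ± 0.30 (adjusted p = 0.814) and rose in last minus middle by 1.29 ± 0.30 (adjusted p = 0.0184). CXCR4, the receptor of CXCL12, differed by -1.68 ± 0.26 in middle minus primordial (adjusted p = 0.000847). In this list of 13 genes 4 passed the filter, 2 of them with a middle-stage mean below its value, so these 2 passed through the other stages. In middle minus primordial 3 were lower, against 22.5% of all genes tested, and in last minus middle 3 were higher, against 8.80%. In last minus primordial 3 were lower, against 15.8%, and 1 was higher, against 17.2%. Without the filter these counts were the same, over 5 genes on the array. The last minus middle count was 1 without last replicate 2 or without middle replicate 1.

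CD80, which shares its receptors with CD86, had 100.3 and 74.5 on the middle-stage arrays and 197 and 180.1 on the primordial arrays (-0.99 ± 0.31, adjusted p = 0.0245). CD40, a receptor for T cell help, differed by -1.62 ± 0.27 (adjusted p = 0.00131). Of all genes tested 22.5% were called lower in middle minus primordial and 15.8% in last minus primordial. CD80 and CD40 are the only genes of their list named here. They were the 2 of 10 co-stimulation genes that passed the filter, and 1 of them was called without middle replicate 2 or without either primordial replicate. Both were lower in last minus primordial, CD80 at a limma adjusted p of 0.05 when rounded, and the count of 2 became 0 without primordial replicate 1 and 1 without each of the other arrays. C3, whose fragments VSIG4 binds, did not pass in middle minus primordial, with 2146 and 1599 on the middle-stage arrays and 1456 and 1431 on the primordial arrays (0.36 ± 0.28, adjusted p = 0.324), and was the only 1 of 5 genes of the complement receptor and ligand list above the filter.

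Of the myeloid transcription factors listed beside SPI1, 4 of 12 passed the filter and 3 were lower in middle minus primordial, against 22.5% of all genes. IRF8, a partner of PU.1, had 245 and 182 on the middle-stage arrays and 2915 and 3600 on the primordial arrays (-3.84 ± 0.40, adjusted p = 9.96e-05). CEBPB differed by -4.56 ± 0.20 (adjusted p = 1.97e-06) and the nuclear receptor NR4A3 by -4.17 ± 0.27 (adjusted p = 1.14e-05), while CEBPD did not pass at -0.60 ± 0.27 (adjusted p = 0.0947). CEBPB and NR4A3 rose in last minus middle, by 3.74 ± 0.20 and 2.07 ± 0.27 (adjusted p = 1.07e-05 and 0.00121), and IRF8 did not pass, at 0.37 ± 0.40 (adjusted p = 0.568). CEBPB is also made by granulosa cells. In the list of the phagocyte oxidase 2 of 5 genes passed the filter: CYBA, its smaller membrane subunit, differed by -1.68 ± 0.24 in middle minus primordial (adjusted p = 0.000551), and NCF1 did not pass at 0.49 ± 0.49 (adjusted p = 0.44).

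In the pan-leukocyte list 8 of 9 tested genes were lower in middle minus primordial, with a median of -3.47, against 22.5% of all genes. Without the filter 7 of 11 were lower, against 16.6%. Among them were PLEK, a substrate of protein kinase C in haematopoietic cells, at -5.40 ± 0.32 (adjusted p = 6.96e-06) and the integrin chain ITGB2 at -4.31 ± 0.33 (adjusted p = 2.04e-05). WAS did not pass at -1.36 ± 0.51 (adjusted p = 0.0508). PTPRC, the leukocyte antigen CD45, was below the filter, with 33.8 and 21.0 on the middle-stage arrays and 47.5 and 49.9 on the primordial arrays. In last minus middle 4 of the 9 pan-leukocyte genes were higher, among them PLEK at 1.60 ± 0.32 (adjusted p = 0.0095), against 8.80% of all genes, a count that was 2 without last replicate 2, 0 without middle replicate 1 and 1 without middle replicate 2. The last minus primordial comparison called 7 of the 9 lower, against 15.8% of all genes tested. All 7 lymphocyte genes that passed the filter had a middle-stage mean below its value of 91.3, so they passed through the other stages, and a count over them alone says nothing of that list. Without the filter 7 of the 13 on the array were called lower in middle minus primordial, against 16.6% of all genes. Examples were CD3E, a chain of the T cell receptor complex, at -2.39 ± 0.54 (adjusted p = 0.00579) and the natural killer cell receptor KLRK1 at -2.59 ± 0.44 (adjusted p = 0.0013). In last minus primordial 5 of the 13 were lower without the filter, against 11.0% of all genes. In last minus middle limma called 0 of the 7, also at an unadjusted p under 0.05, or 1 higher without last replicate 1. The lymphocyte genes on the array summed to 556 and 510.4 on the middle-stage arrays and 2103 and 3056 on the primordial arrays, over 13 of 20 listed. The neutrophil and mast cell genes summed to 362.5 and 259 on the middle-stage arrays and 427 and 477 on the primordial arrays, over 6 of 14, of which 5 were below the filter. The other, MS4A2, a chain of the mast cell receptor for immunoglobulin E, did not pass in middle minus primordial at -0.39 ± 0.42 (adjusted p = 0.471) or in last minus middle at -0.98 ± 0.42 (adjusted p = 0.144). MS4A2 was called lower in last minus primordial, at -1.37 ± 0.42 (adjusted p = 0.0332), a call lost without the filter. None of the listed genes had a signal of 0. The part of these cells in the levels of CD53, LAPTM5 or FCGR3A, which lymphocytes or natural killer cells also express, was not tested.

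**Figure D3:**
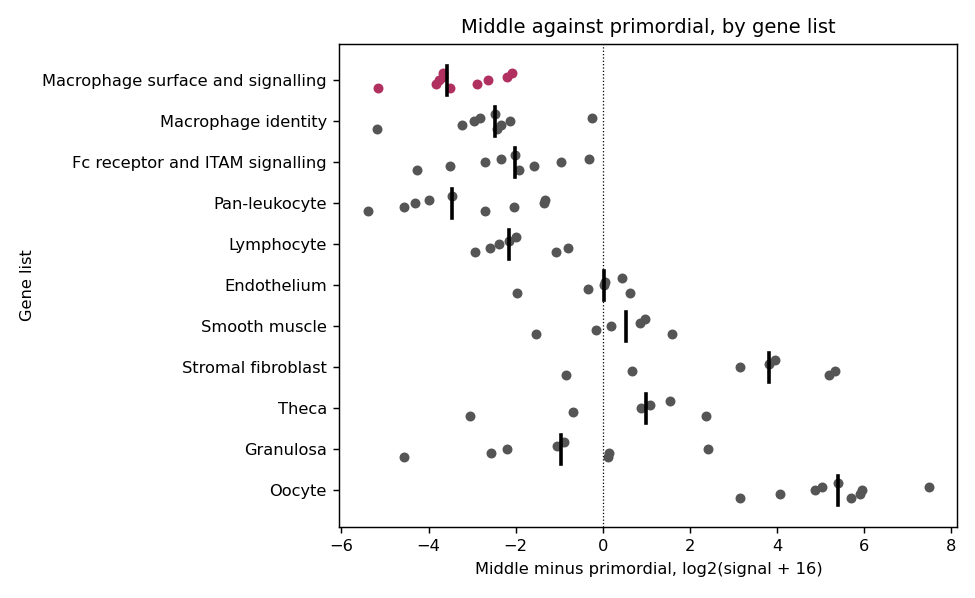
Middle minus primordial difference in log2(signal + 16) of each tested gene, by gene list, at 1 probe set per gene; the vertical bar is the median of the list. The 10 macrophage genes (top row, coloured) lie between -5.17 and -2.10, leukocyte lists lie mostly left of 0, and the oocyte list lies right of 0 with a median of 5.41.

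The gap between the last-stage arrays was also seen in other leukocyte genes. Among genes that passed the filter, last replicate 2 was above last replicate 1 in 9 of 9 of the Fc receptor and ITAM list and 8 of 9 of the macrophage list. The counts were 9 of 9 in the pan-leukocyte list and 7 of 7 in the lymphocyte list, against 51.2% of all probe sets tested. The medians were 0.72, 1.36, 1.11 and 1.28 on the log2 scale. In the macrophage list the exception above the filter was GPNMB, at -0.62. Of the dim genes of these lists below the filter, CLEC5A (-1.34), PTPRC (-0.34) and SIGLEC1 (-0.06) were lower in last replicate 2 and the rest were higher. The same median was 0.39 for 6 endothelial genes, all higher in last replicate 2. It was -0.15 for the oocyte, -0.07 for the granulosa, -0.03 for the theca, -0.06 for the stromal fibroblast and -0.04 for the smooth muscle list. Single genes of these lists differed more and in both directions, such as COL3A1 (2.27) and LUM (-1.55) of the stromal list and LHCGR (1.13) of the theca list. The summed signal of the 10 genes was 24207.5 and 22762 on the primordial arrays, 2587 and 1763 on the middle-stage arrays and 2361 and 5774 on the last-stage arrays. That of the lymphocyte genes was 479 and 1294 on the last-stage arrays.

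**Figure D4:**
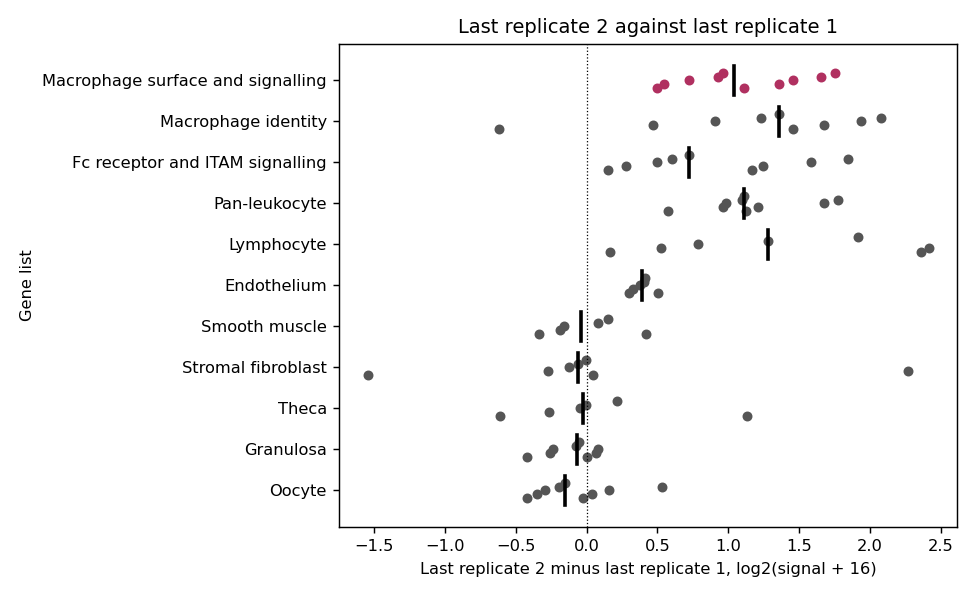
Last replicate 2 minus last replicate 1 in log2(signal + 16) for each tested gene, by gene list; the vertical bar is the median. The 10 macrophage genes (top row, coloured) all lie right of 0 with a median of 1.04, and the medians of the stromal, theca, granulosa, smooth muscle and oocyte lists lie between -0.15 and -0.03.

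Across the 6 arrays the 10 genes followed each other, with Pearson's r of log2 values from 0.867 between FCGR2B and FCGR3A to 0.998 over the 45 pairs, and a median of 0.961. The arrays share their stage and scaling, so these values are a description with no test. The genes whose values over the 6 arrays were most like the mean of the 10, out of 5422 others, were SIRPA (r = 0.997), LCP1, an actin-bundling protein of leukocytes (0.996), the granule proteoglycan SRGN (0.995), VAV1 (0.995), LOC100518620 (0.994), CTSS (0.994), the kinase MAPK6 (0.994) and PIK3AP1, an adaptor for phosphoinositide 3-kinase (0.994). An r of at least 0.95 was reached by 3.98% of the 5422.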

How the data were processed

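RNA of 6 samples was measured on 1-colour arrays. The deposited table holds 1 linear intensity for each of 24123 probe sets per array, made by the authors with the array software GCOS, per the submitters' processing notes, which name no version or setting. A mean of 500.1 on every array, trimmed by 2% at each end, shows that the authors scaled the deposited intensity values to a common level.

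Stages came from the titles. After 124 control probe sets were left out, of 23999 probe sets 10069 had 1 gene symbol in the platform annotation, which can be old. All 10 genes were found in the RefSeq table under the same symbol. Values were taken as log2(intensity + 16), and the 40% of probe sets with a mean below 91.3 were left out, which left 14399. limma 3.58.1 (R 4.3.3; functions lmFit and eBayes, trend by intensity) was fitted to all 6 arrays without a replicate block, with two-sided tests and Benjamini-Hochberg adjustment over 14399 probe sets, threshold 0.05. Alternatives were a pseudocount of 1 or 64, no filter or one at 60%, arrays centred on their medians, quantile normalization, no intensity trend, a replicate block, only the 4 arrays compared, the mean of a gene's probe sets, and each array left out in turn. A gene is represented in list counts by its probe set with the highest mean. Python 3.11.15, pandas 2.3.3, numpy 2.4.6 and matplotlib 3.10.9 were used for tables and figures. The number of arrays limits the precision.

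The 10 genes and the other gene lists were chosen with earlier results of these data known. Named were all probe sets of the 10 genes, up to 4 called genes with the smallest p per list, comparison and direction, list genes that did not pass, and the 8 genes most like the mean of the 10. On simulated data over 14399 probe sets for middle minus primordial, the fit recovered 45% of 100 probe sets changed by 2 on the log2 scale and 12% of 100 changed by 1, with 1 false call among 14199 unchanged. The unchanged probe sets there had 1 mean over all stages, whereas 47.4% of probe sets were called in the real comparison. The adjusted threshold therefore falls elsewhere, and these rates need not hold for the real data.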

Additional observations from a re-analysis of the deposited data

How the results depend on the processing

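In middle minus primordial each of the 10 genes was called lower in every alternative that tested it; the filter at 60% left 9. For last minus primordial 8 to 10 were called lower, and no probe set changed sign in either comparison. In last minus middle the count of 1 gene was 3 with arrays centred on their medians, 3 with quantile normalization and 0 to 4 when 1 array was left out. The sign of FCGR2B there turned with centring (0.0463), with quantile normalization (0.0571), without last replicate 1 (0.186) and without middle replicate 1 (0.14), with a range of -0.308 to 0.186 over the arrays left out. VSIG4 turned without last replicate 2 (-0.428) and middle replicate 2 (-0.129), with a range up to 0.539, and CCR1 without last replicate 2 (-0.522), with a range up to 1.24. None of these differences was called.

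The list counts depended on the filter where lists were dim. With the dimmest 60% left out, the Fc receptor and ITAM list had 4 called in middle minus primordial and 4 in last minus primordial, the lymphocyte list 0 and 0, the co-stimulation list 1 and 1, and in last minus primordial the neutrophil and mast cell list 0 and the phagocyte oxidase list 1; fewer genes were tested there. With no filter, last minus primordial had 5 lymphocyte, 1 co-stimulation and 0 neutrophil and mast cell genes, and middle minus primordial had 2 oxidase genes and 1 neutrophil and mast cell gene. The last minus primordial co-stimulation count was also 1 with a pseudocount of 1 and with a replicate block, and the oxidase count was 1 with centring, with only the 4 arrays compared and with a pseudocount of 64. The cause of these changes was not tested.

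When 1 array was left out, last minus middle counts were 1 to 3 for chemoattractant genes, 0 to 2 for the Fc receptor and ITAM list, 0 to 1 for the complement, lymphocyte, neutrophil and mast cell, and oxidase lists, 0 to 4 for the macrophage list and 0 to 6 for the pan-leukocyte list. Last minus primordial counts were 5 to 8 for the Fc receptor and ITAM list, 5 to 8 for the macrophage list, 0 to 1 for the co-stimulation, neutrophil and mast cell, and oxidase lists and 1 to 4 for the lymphocyte list, and in middle minus primordial 1 to 2 for the co-stimulation and 2 to 6 for the lymphocyte list. A stage left with 1 array was assumed to vary like the others. Over all probe sets tested, 4356 to 7189 were called for middle against primordial, 727 to 2172 for last against middle and 2730 to 4297 for last against primordial. The share of higher calls for middle against primordial was 62.7% as deposited, 47.5% with centring and 53.2% with quantile normalization. It was 42.3% as deposited and 54.8% with centring for last against middle, and 59.7% and 47.4% for last against primordial.

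Deviations of arrays with the same replicate number in the titles were nearly unrelated, correlating at 0.06, 0.03 and -0.05 across probe sets. Whether such arrays shared an animal or a batch cannot be told from these values, and the sources used here do not say. With a replicate block 6601 probe sets were called for middle against primordial, 2279 for last against middle and 4532 for last against primordial.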
